A study of Mus musculus with 17 samples.

Results

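The genes described here are 10 that build and maintain organized lymphoid tissue, chosen by name as 4 chemokines (Cxcl13, Ccl19, Ccl21a, Cxcl12), 3 chemokine receptors (Cxcr5, Ccr7, Cxcr4), both lymphotoxin genes (Lta, Ltb) and the lymphotoxin receptor gene (Ltbr). All 10 were present among the 45777 genes of the count table and all 10 passed the filter on low counts, which kept 22052 genes. RNA-seq was performed on left lungs of male wild-type C57BL/6 mice that were 6 weeks old on arrival. Lungs had received no radiation (control), or a focal dose of 65 Gy or 75 Gy given under image guidance, and were taken at 2 weeks (the inflammation stage) or 6 weeks (the fibrosis stage). Each of the 6 groups held 3 libraries, except for 65 Gy at 6 weeks with 2. No transgene or deletion was involved, and RNA came from the lesion of the left lung, so that an irradiated library describes a small beamed area and not the whole lung.

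Lymphoid tissue is patterned by a circuit in which stromal cells and lymphocytes instruct each other. Lymphotoxin on lymphocytes engages the lymphotoxin-beta receptor on stroma, the receptor signals through the noncanonical NF-kB pathway, and stroma in turn releases chemokines. CXCL13 draws CXCR5-bearing B cells and follicular helper T cells into follicles, CCL19 and CCL21 draw CCR7-bearing T cells and dendritic cells into T zones, and CXCL12 retains CXCR4-bearing cells in niches. The same circuit is known from tertiary lymphoid structures, which form in inflamed lungs as bronchus-associated lymphoid tissue.

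The library totals lay between 46764569 and 66797879 counts with a median of 57608149, so even the least abundant members were covered by 23 or more counts in every library. Levels are given as CPM (counts scaled to a common depth) on library sizes scaled by TMM, and a gene was called a DEG at an adjusted p of at most 0.05 (edgeR's quasi-likelihood test, Benjamini-Hochberg adjustment over all 22052 genes) and at least a doubling or halving, that is a log2 fold change beyond 1 in either direction. The lung epithelial markers Sftpc, Sftpa1, Ager and Scgb1a1 were present in all 17 libraries, with a summed level between 17400 and 41300 CPM. A pair of libraries stood apart on markers of immune cells. Library 3134 of 75 Gy at 2 weeks had the lowest summed lung marker level (17400 CPM) and the highest T cell (211 CPM) and dendritic cell (592 CPM) levels, and control library 3135 of 6 weeks had the highest B cell level (595 CPM). Values without these libraries are given beside a number of the results below that moved when they were left out. The data are from bulk tissue, so that fewer cells of a type and less RNA per cell cannot be told apart. Nothing in the labels says whether libraries of a group came from separate animals, and p-values measure the spread between these libraries.

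Sequences of Cxcl13 and of the Ccl21 genes bear on the values that follow. The stretch upstream of Cxcl13 is shown because Cxcl13 was the member called in all 4 comparisons with control lungs. The 250 bases before the gene's start (RefSeq, GRCm38.p6, chr5:95956689-95956938, plus strand) read as follows, with the motif TATAAA in capitals.
Cxcl13 upstream: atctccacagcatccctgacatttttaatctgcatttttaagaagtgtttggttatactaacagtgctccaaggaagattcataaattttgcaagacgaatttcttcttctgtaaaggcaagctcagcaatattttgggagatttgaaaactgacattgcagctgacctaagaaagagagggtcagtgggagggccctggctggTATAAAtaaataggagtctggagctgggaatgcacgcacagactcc

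The motif lay 46 to 41 bases before the start. Searched on both strands of the same window, TATAAA was found in 4063 of 32851 promoters (12.4%), and among the 8 members with a promoter in the table it was found for Cxcl13, Cxcr4 and Lta. For Lta it lay 167 to 162 bases before the start. Promoters of Cxcr5 and Ccr7 were not analysed here.

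The repeated Ccl21 gene family is shown because it decides how far a count can be assigned to Ccl21a. Ccl21a was accompanied in the table by 4 near-identical genes, Ccl21b, Gm10591, Gm13304 and Gm21541. Coding sequences of 402 bases (GENCODE, GRCm38.p6) were identical among these 4 and differed from Ccl21a at 2 positions, T84A and C194T, counted from the first base of the start codon with the base of Ccl21a first. T84A is at place 3 of codon 28 and C194T at place 2 of codon 65, and the deposited gene descriptions name the Ccl21a product by serine and the Ccl21b product by leucine. Coding bases 73 to 204 of Ccl21a and Ccl21b are given here, with the bases that differ in capitals.
Ccl21a: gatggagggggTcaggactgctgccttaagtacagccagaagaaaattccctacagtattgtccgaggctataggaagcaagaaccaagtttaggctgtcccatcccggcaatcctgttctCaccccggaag
Ccl21b: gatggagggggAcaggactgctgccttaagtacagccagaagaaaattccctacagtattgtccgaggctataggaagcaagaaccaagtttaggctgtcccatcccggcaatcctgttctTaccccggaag

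Of the 771 windows of 100 bases in the Ccl21a transcript, 388 (50.3%) occurred unchanged in at least 1 of the 4 copies. A single read of 100 bases from such a window cannot be assigned to a gene by its own sequence. Sequencing was paired-end, and what the mate of a read could add was not examined.

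At the level of the whole set, members did not move as a block. Per kilobase of annotated exon, the order of the mean levels in control lungs at 2 weeks was Ccl21a (61.1 ± 8.1 CPM per kb, SD, n = 3), Cxcr4 (47.7 ± 7.91), Ltbr (37.4 ± 0.544), Cxcl12 (24.7 ± 6.84), Ccr7 (13 ± 2.25), Ltb (11 ± 1.72), Cxcr5 (4.98 ± 1.55), Cxcl13 (2.06 ± 0.437), Lta (0.536 ± 0.289) and Ccl19 (0.435 ± 0.0508). The neighbours Ccl21a and Cxcr4, Ccr7 and Ltb, and Lta and Ccl19 did not differ beyond their SDs. Lengths join all annotated exons of a gene, which lowers the value of Cxcl12, whose annotation spans 8.176 kb of exon. In 65 Gy-irradiated lungs at 6 weeks, Cxcl13 reached 7.05 ± 0.343 CPM per kb (SD, n = 2) and stood above Cxcr5 at 2.73 ± 0.429, the reverse of their order in control lungs.

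Compared with controls of the same time, 1 of the 10 members was called at 65 Gy and 2 weeks, where 4.35% of all genes tested were called. At 75 Gy and 2 weeks, 2 of 10 were called against 7.74% of all genes. At 6 weeks, 1 of 10 was called at 65 Gy against 5.28% of all genes, and 2 of 10 at 75 Gy against 10.4%. The members' median log2 fold changes in these comparisons were 0.08, 0.10, 0.01 and -0.09, beside -0.01, 0, 0.01 and 0.04 over all genes. At each time both doses share the same control libraries, so their calls are not independent of each other.

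**Figure D1:**
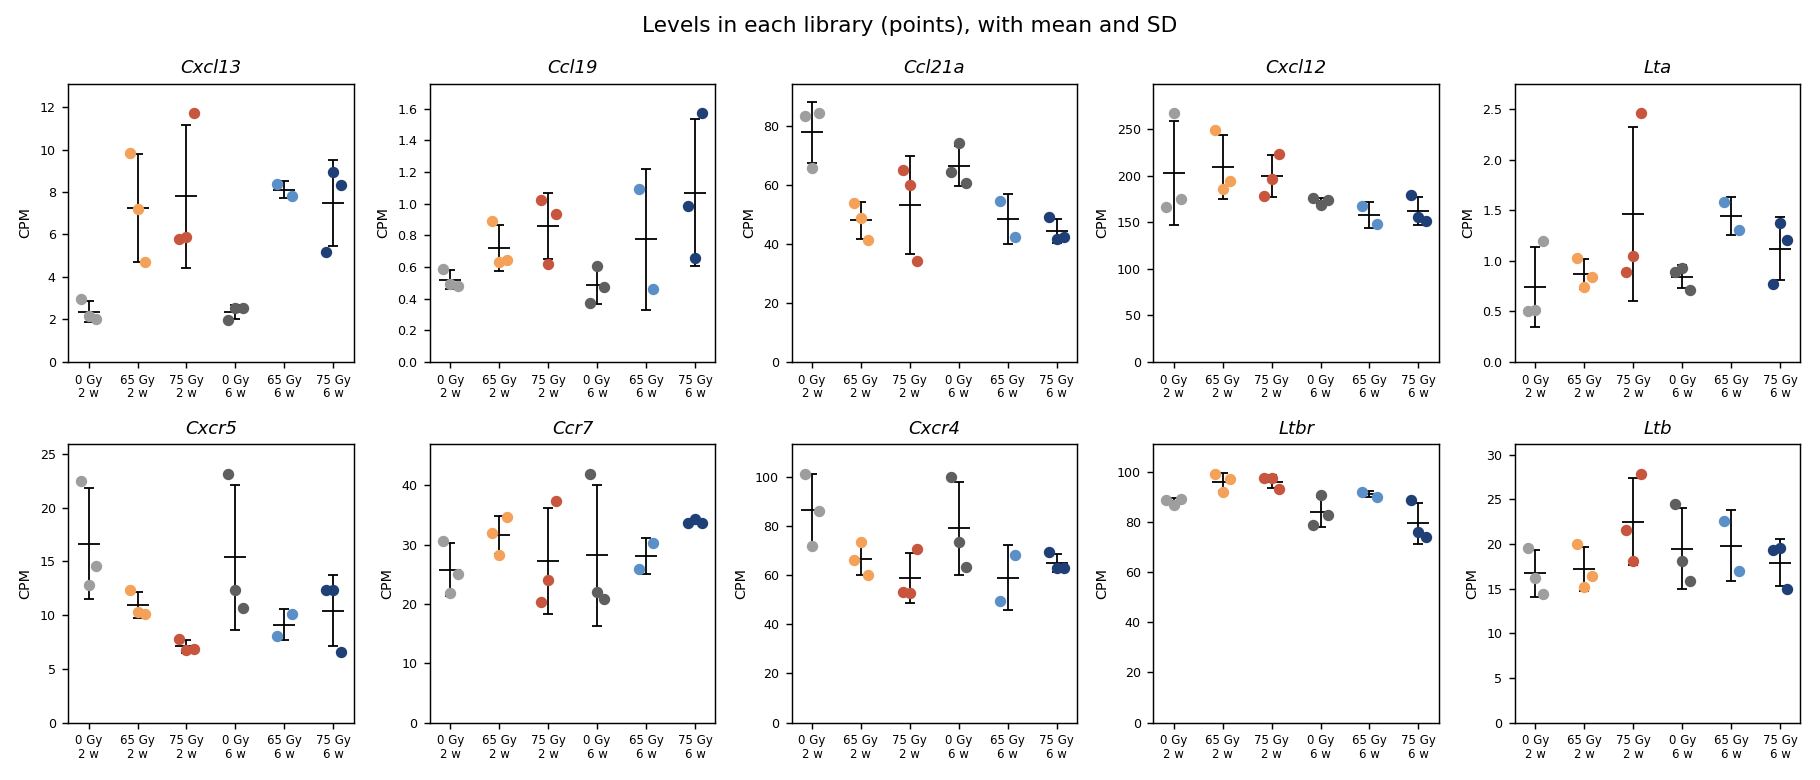
Levels of the 10 members in CPM (y axis, from 0) in each library, by dose in Gy and weeks (w) after irradiation, with the mean and SD of each group. Cxcl13 sat between 1.96 and 2.94 CPM in the 6 control libraries and between 4.72 and 11.7 CPM in the 11 irradiated ones, whereas Cxcl12 and Ltbr stayed at similar levels throughout.

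Among the chemokines, Cxcl13 (gene ID 55985, chr5:95956939-95961068, plus strand) was the most responsive member. It encodes the follicular B cell attractant. Control libraries of 2 weeks had 2.94, 2.16 and 2.00 CPM, those of 65 Gy 9.83, 7.18 and 4.72 CPM, and those of 75 Gy 5.80, 5.90 and 11.7 CPM. At 6 weeks, control libraries had 1.96, 2.55 and 2.53 CPM, those of 65 Gy 8.39 and 7.83 CPM, and those of 75 Gy 5.18, 8.95 and 8.34 CPM. Every irradiated library thus exceeded every control library, of either time.

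Cxcl13 was upregulated 3.06-fold by 65 Gy (log2 fold change 1.61, SE 0.31, adjusted p = 0.00445 by edgeR's quasi-likelihood test) and 3.28-fold by 75 Gy (1.72, SE 0.31, adjusted p = 0.00147) at 2 weeks. At 6 weeks the increases were 3.46-fold at 65 Gy (1.79, SE 0.34, adjusted p = 0.00337) and 3.19-fold at 75 Gy (1.67, SE 0.31, adjusted p = 0.000979). The upregulation was therefore present at both stages and both doses, with no measurable step between them. The log2 difference of 75 Gy from 65 Gy was 0.10 at 2 weeks (95% confidence interval -0.53 to 0.74) and -0.12 at 6 weeks (-0.83 to 0.59), intervals that leave room for a dose difference of up to 0.83 on the log2 scale. The change of the 65 Gy effect from 2 to 6 weeks was 0.18 (-0.80 to 1.16), that of the 75 Gy effect was -0.04 (-0.97 to 0.89), and control lungs differed by -0.01 between the times. Without library 3134 the log2 fold change at 75 Gy and 2 weeks was 1.30 (adjusted p = 0.00616, edgeR), and over all fits that left out a library Cxcl13 kept its call in each of the 4 comparisons, with a lowest value of 1.30 and a highest of 1.91.

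The level of Cxcl13 moved with markers of macrophages and dendritic cells, among other cell types. The summed level of 8 dendritic cell markers was between 148 and 210 CPM in control libraries and between 288 and 592 CPM in irradiated ones, and that of 6 macrophage markers between 196 and 271 CPM against 522 to 1050 CPM. Log2 fold changes were above 0 for 6, 7, 7 and 7 of the 8 dendritic cell markers, and for 5 of the 6 macrophage markers in each comparison. Zbtb46, a dendritic cell marker, went the other way. Its means were 47.4, 35.2 and 35.5 CPM in control, 65 Gy and 75 Gy groups of 2 weeks. At 6 weeks they were 34.9, 27.5 and 24.5 CPM. Across the 17 libraries Cxcl13 had a Pearson r of 0.90 with the dendritic cell sum and 0.92 with the macrophage sum, which fell to 0.49 and 0.52 once group means were removed. With T cell markers the r was 0.75 (0.62 within groups). It was -0.90 with blood endothelial markers (-0.75 within groups) and -0.90 with lymphatic markers (-0.62 within groups). With neutrophil markers it was -0.81 (-0.17 within groups). These are descriptions over libraries that share their dose groups, and the part of these cells in the Cxcl13 level was not tested. By the same measure the genes most like Cxcl13 among 15798 searched were Gpr176 (r = 0.972), Rgs16 (r = 0.964) and Cxcl9 (r = 0.963), the last an interferon-inducible chemokine gene, with r within groups of 0.848, 0.803 and 0.874.

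Ccl19 (gene ID 24047, chr4:42754525-42756365, minus strand) encodes a CCR7 ligand of T zone stroma and mature dendritic cells, and was the least abundant member, at 23 to 86 counts per library. At 6 weeks its level was 0.373, 0.606 and 0.471 CPM in control libraries, 1.09 and 0.461 CPM at 65 Gy, and 0.984, 0.655 and 1.57 CPM at 75 Gy. The 75 Gy libraries all lay above the controls, by a small margin for the lowest of them, and the 65 Gy libraries fell on both sides.

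Ccl19 was upregulated 2.21-fold by 75 Gy at 6 weeks (log2 fold change 1.14, SE 0.37, adjusted p = 0.0247, edgeR). This call rested on single libraries, since it was lost without control library 3135 (0.99, adjusted p = 0.0934), control library 3137 (1.13, adjusted p = 0.0656) or 75 Gy library 3143 (0.78, adjusted p = 0.145). At 2 weeks the level was 0.589, 0.492 and 0.477 CPM in control libraries, 0.888, 0.634 and 0.641 CPM at 65 Gy and 1.02, 0.621 and 0.932 CPM at 75 Gy. The groups of 2 weeks did not overlap with controls at either dose, yet neither log2 fold change passed the test (0.47, adjusted p = 0.474, and 0.72, adjusted p = 0.185, edgeR). At 65 Gy and 6 weeks it was 0.68 (adjusted p = 0.286, edgeR).

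Ccl19 has pseudogenes with counts of their own in the table, and how reads shared with them were counted is not given in the sources used here. Ccl19-ps1 and Ccl19-ps2 had 21 to 49 and 9 to 49 counts per library, so that Ccl19 made up between 29.8% and 58.6% of the family. Of the 646 windows of 100 bases in the Ccl19 transcript, 49 (7.59%) occurred in Ccl19-ps1. With the 3 rows summed, the log2 fold change of 75 Gy at 6 weeks was 0.97 (adjusted p = 0.0124, edgeR), below the fold limit. Ccl19 and Ccl21a also lie within the span of the noncoding gene 4930578G10Rik, and whether the counting used strand is not given in the sources used here.

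Ccl21a (gene ID 18829, chr4:42772860-42773991, minus strand) encodes the serine form of the CCR7 ligand CCL21, and went the other way. Control libraries of 2 weeks had 83.2, 65.8 and 84.1 CPM, those of 65 Gy 53.9, 48.7 and 41.4 CPM, and those of 75 Gy 64.9, 60.0 and 34.1 CPM. At 6 weeks the levels were 64.3, 74.0 and 60.6 CPM in control libraries, 54.4 and 42.4 CPM at 65 Gy, and 49.0, 41.7 and 42.4 CPM at 75 Gy. In each of the 4 comparisons all irradiated libraries were below all control libraries of that time.

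The size of this difference stayed under the fold limit, so Ccl21a was not called at any dose or time. Its log2 fold change was -0.69 at 65 Gy (SE 0.19, adjusted p = 0.0326, edgeR) and -0.55 at 75 Gy (SE 0.19, adjusted p = 0.0527) at 2 weeks. At 6 weeks it was -0.45 at 65 Gy (SE 0.22, adjusted p = 0.181, edgeR) and -0.58 at 75 Gy (SE 0.19, adjusted p = 0.0296). An adjusted p of at most 0.05 alone was reached by 11% of all genes at 65 Gy and 2 weeks and by 36% at 75 Gy and 6 weeks. The value of 75 Gy at 2 weeks was -0.32 without library 3134 (adjusted p = 0.169, edgeR).

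The 4 copies followed Ccl21a closely. Their counts had median ratios to Ccl21a of 0.243 (Ccl21b), 0.208 (Gm10591), 0.258 (Gm13304) and 0.199 (Gm21541), with a range over the 17 libraries of 0.199 to 0.262 for Ccl21b. Ccl21a held 50.7% to 57.6% of the family. Log2 fold changes of the copies at 65 Gy and 2 weeks were -0.71, -0.71, -0.70 and -0.70, beside -0.69 for Ccl21a, and at 75 Gy and 6 weeks -0.76, -0.77, -0.77 and -0.77, beside -0.58. With all 5 rows summed, the family had 147 ± 18.5 CPM (SD, n = 3) in control lungs of 2 weeks, 90.7 ± 10.6 at 65 Gy (n = 3) and 101 ± 32.6 at 75 Gy (n = 3), and 129 ± 13.2 (n = 3), 87.5 ± 16.5 (n = 2) and 81.1 ± 7.74 (n = 3) at 6 weeks. The summed log2 fold changes were -0.70, -0.54, -0.56 and -0.67, with adjusted p of 0.0328, 0.0605, 0.104 and 0.0154 (edgeR). The copies share bases with Ccl21a, as the printed stretch shows, and their values are not separate measurements.

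**Figure D2:**
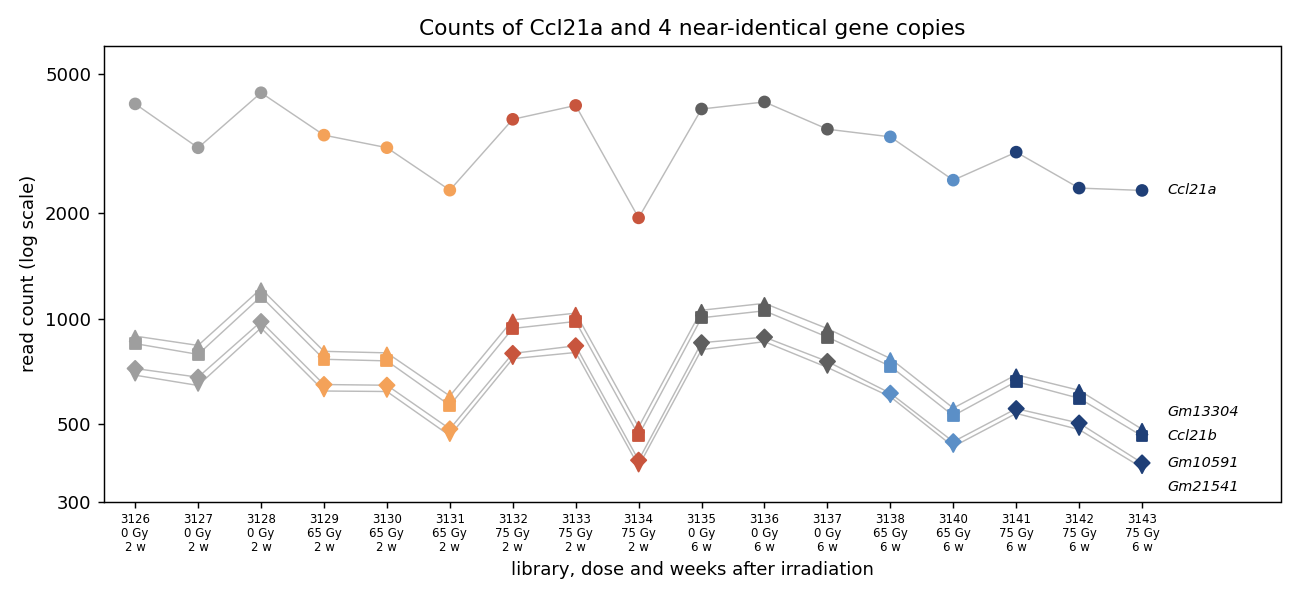
Read counts (y axis, log scale) of Ccl21a and 4 near-identical genes in each of the 17 libraries, with library number, dose in Gy and weeks (w) after irradiation on the x axis and a line joining the points of a gene. The 4 lower lines run parallel to Ccl21a, at median ratios between 0.199 and 0.258, with Ccl21a lowest in library 3134 (1938 counts) and the copies lowest in library 3143.

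Endothelial marker sums were lower in the same libraries as Ccl21a. The summed level of the lymphatic markers Prox1, Lyve1, Flt4, Pdpn, Mmrn1 and Reln was 547 to 706 CPM in control libraries and 341 to 533 CPM in irradiated ones, with none of the 6 at 0, and Lyve1 made up most of it in control lungs of 2 weeks (367 ± 81.5 CPM, SD, n = 3). Of the 6 markers, 1 was called lower at 65 Gy and 2 weeks (Lyve1, where 0.88% of all genes were called lower), 0 at 75 Gy and 2 weeks (2.07%), 0 at 65 Gy and 6 weeks (0.943%) and 3 at 75 Gy and 6 weeks (Flt4, Reln and Lyve1, where 3.13% were), and 1 of the 6 had a fold change above 0 in each comparison. The Lyve1 call at 65 Gy and 2 weeks was lost without library 3135 (adjusted p = 0.0548, edgeR). Prox1, the defining transcription factor gene, was called in no comparison, with 4.81 ± 0.577 CPM (SD, n = 3) in control lungs and 4.46 ± 0.232 CPM (SD, n = 3) at 65 Gy at 2 weeks, and 5.26 ± 1.02 CPM (SD, n = 3) in control lungs and 3.58 ± 0.341 CPM (SD, n = 3) at 75 Gy at 6 weeks.

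The sum of 6 blood endothelial markers was 3180 to 3780 CPM in control libraries and 1310 to 2530 CPM in irradiated ones. Of these markers 2, 2, 1 and 4 were called lower in the 4 comparisons, where 0.88%, 2.07%, 0.943% and 3.13% of all genes were. They were Tek and Plvap at both doses of 2 weeks, Tek at 65 Gy and 6 weeks, and Cdh5, Kdr, Tek and Plvap at 75 Gy and 6 weeks. Ccl21a had r = 0.89 with the lymphatic sum over 17 libraries (0.76 within groups), r = 0.85 with the blood endothelial sum (0.74 within groups) and r = 0.63 with the lung epithelial sum (0.76 within groups), so that the level moved with all 3. The part of these cells in the Ccl21a level was not tested.

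Cxcl12 (gene ID 20315, chr6:117168535-117181368, plus strand), the stromal retention chemokine gene, was the most abundant member in CPM. Its level was between 166 and 267 CPM in control libraries and between 148 and 249 CPM in irradiated libraries, with overlap in 3 of the 4 comparisons. At 65 Gy and 6 weeks both libraries (168 and 148 CPM) were just below the controls (169 to 176 CPM). Log2 fold changes were 0.05, -0.02, -0.13 and -0.10 with adjusted p from 0.671 to 0.939 (edgeR). The widest 95% confidence interval, that of 65 Gy at 6 weeks, was -0.52 to 0.25, which leaves out a change of the size seen for Cxcl13.

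Among the receptors, Cxcr5 (gene ID 12145, chr9:44511787-44526444, minus strand), the CXCL13 receptor gene of B cells and follicular helper T cells, was downregulated at 75 Gy and 2 weeks and was not called in the other 3 comparisons. Control libraries of 2 weeks had 22.5, 12.8 and 14.6 CPM, those of 65 Gy 12.3, 10.3 and 10.1 CPM, and those of 75 Gy 7.79, 6.72 and 6.82 CPM. The 3 groups did not overlap and descended with dose. At 6 weeks the levels were 23.1, 12.3 and 10.7 CPM in control libraries, 8.06 and 10.1 CPM at 65 Gy, and 12.3, 12.3 and 6.59 CPM at 75 Gy, with overlap between control and 75 Gy.

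Cxcr5 fell at 75 Gy and 2 weeks (log2 fold change -1.22, SE 0.29, adjusted p = 0.00754, edgeR), where 2.07% of all genes were called lower. Without control library 3126, the highest of its group, the value was -0.93 (adjusted p = 0.0328), under the fold limit. The log2 fold change was -0.61 at 65 Gy and 2 weeks (adjusted p = 0.196, edgeR), and -0.76 at 65 Gy (adjusted p = 0.134) and -0.56 at 75 Gy (adjusted p = 0.138) at 6 weeks. Without control library 3135 the latter values were -0.35 and -0.15. The step from 65 to 75 Gy at 2 weeks was -0.61 (95% confidence interval -1.23 to 0.01, adjusted p = 0.693, edgeR), and 0 of 22052 genes were called between the doses.

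**Figure D3:**
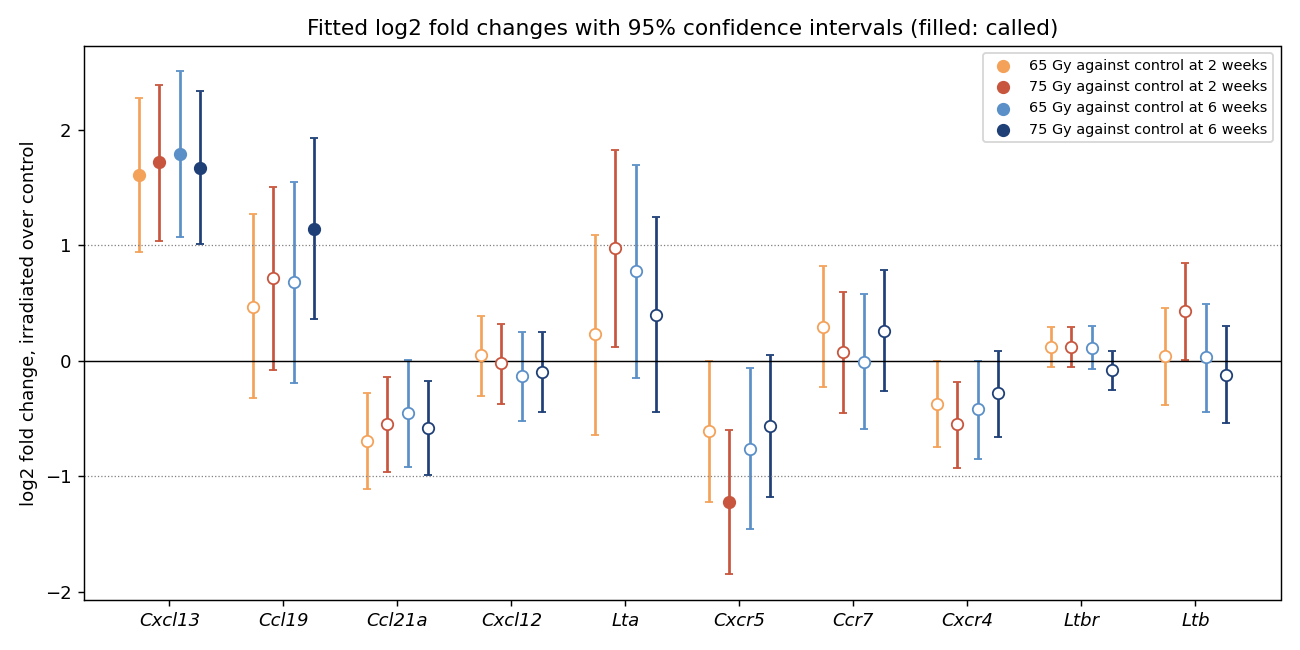
Log2 fold change of irradiated over control lungs (y axis) for each member, with 95% confidence intervals, coloured by dose and time and filled where called. Cxcl13 is filled in all 4 comparisons between 1.61 and 1.79, Cxcr5 once at -1.22 and Ccl19 once at 1.14.

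B cell markers moved with Cxcr5. The sum of 8 B cell markers was 202 to 315 CPM in control libraries, 185 to 244 CPM at 65 Gy and 133 to 165 CPM at 75 Gy at 2 weeks. At 6 weeks it was 330 to 595 CPM, 243 CPM in both 65 Gy libraries and 204 to 273 CPM at 75 Gy. Ms4a1, the CD20 gene, had 40.6 ± 21.9 CPM (SD, n = 3) in control lungs and 24 ± 10.7 CPM (SD, n = 3) in 75 Gy-irradiated lungs at 2 weeks, and was not called in any of the 4 comparisons. Pax5, the gene of the B lineage transcription factor, was called lower at 6 weeks at 65 Gy (-1.24 on the log2 scale, adjusted p = 0.00993, edgeR), where 0.943% of all genes were called lower, and at 75 Gy (-1.41, adjusted p = 0.00063). Without control library 3135 these values were -0.88 (adjusted p = 0.0348, edgeR), under the fold limit, and -1.05 (adjusted p = 0.0031). None of the 8 was at 0 in any library. Cxcr5 had r = 0.78 with the B cell sum over the 17 libraries and 0.89 within groups, and r = 0.80 with a sum of 6 neutrophil markers (0.60 within groups). Control library 3135 was highest in the B cell sum and in Cxcr5 alike. The part of B cells in the Cxcr5 level was not tested.

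**Figure D4:**
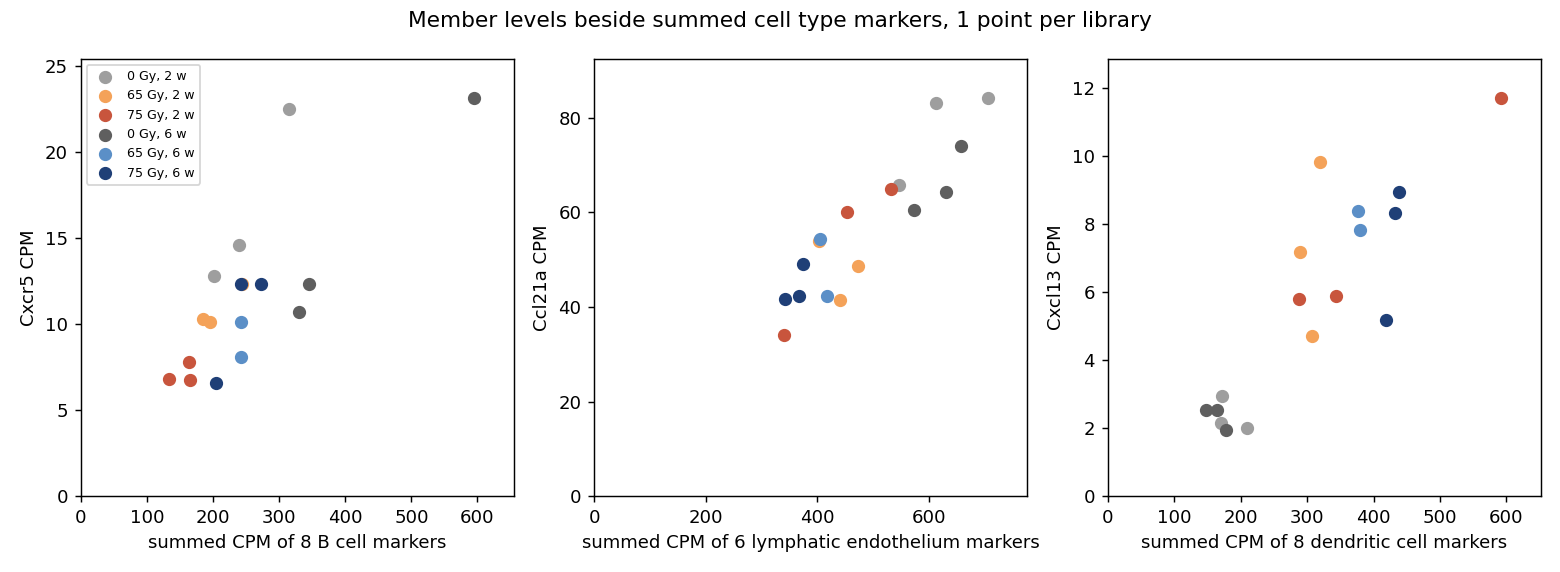
Levels of Cxcr5, Ccl21a and Cxcl13 (y axes, CPM) against the summed CPM of markers of B cells, lymphatic endothelium and dendritic cells (x axes), with 1 point per library coloured by dose and time. Irradiated libraries lie low on both axes for the lymphatic endothelium panel (341 to 533 CPM of markers) and high on both for the dendritic cell panel (288 to 592 CPM).

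Ccr7 (gene ID 12775, chr11:99144199-99155077, minus strand) encodes the receptor of CCL19 and CCL21 on naive T cells and mature dendritic cells. Its level was 30.6, 21.8 and 25.0 CPM in control libraries of 2 weeks, 32.0, 28.2 and 34.7 CPM at 65 Gy and 20.4, 24.0 and 37.3 CPM at 75 Gy. At 6 weeks it was 41.9, 22.0 and 20.8 CPM in control libraries, 25.9 and 30.3 CPM at 65 Gy, and 33.7, 34.3 and 33.7 CPM at 75 Gy. Irradiated and control libraries overlapped in all 4 comparisons, with the highest value in control library 3135.

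Log2 fold changes of Ccr7 were 0.29, 0.08, -0.01 and 0.26, none past the test (adjusted p from 0.43 to 0.989, edgeR). Without control library 3135 the values of 6 weeks were 0.39 at 65 Gy (adjusted p = 0.299) and 0.66 at 75 Gy (adjusted p = 0.0298), the latter past the adjusted p and under the fold limit, and without library 3134 the value at 75 Gy and 2 weeks was -0.22. Their 95% confidence intervals reached from -0.59 to 0.82, so that with all libraries a change by the size of the fold limit was outside all 4 of them. The T cell marker sum was 90.7 to 135 CPM in controls and 109 to 211 CPM after irradiation.

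Cxcr4 (gene ID 12767, chr1:128588199-128592299, minus strand), the CXCL12 receptor gene of most leukocytes, had 101, 71.9 and 86.1 CPM in control libraries of 2 weeks. The 65 Gy libraries had 66.2, 73.3 and 60.2 CPM, and those of 75 Gy 53.0, 52.6 and 70.5 CPM. The 75 Gy libraries were all below the controls. At 6 weeks, control libraries had 100, 73.6 and 63.2 CPM, those of 65 Gy 49.6 and 68.3 CPM and those of 75 Gy 69.3, 62.7 and 62.8 CPM, and the groups overlapped.

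The log2 fold change of Cxcr4 was -0.55 at 75 Gy and 2 weeks (SE 0.18, adjusted p = 0.0347, edgeR), under the fold limit, in a comparison where 22.3% of all genes reached that adjusted p. The others were -0.37, -0.42 and -0.28 with adjusted p of 0.201, 0.171 and 0.225 (edgeR). Without control library 3126 the value at 75 Gy and 2 weeks was -0.42 (adjusted p = 0.115), and without control library 3135 those of 6 weeks were -0.22 at 65 Gy and -0.08 at 75 Gy. Neutrophil markers, which belong to cells that carry this receptor, were lower in the same libraries, with a sum of 432 to 721 CPM in controls and 116 to 339 CPM after irradiation. Of these 6 markers all 6 were called lower at 2 weeks at both doses, and 2 (Cxcr2 and Csf3r) at 6 weeks at both doses, where 0.88%, 2.07%, 0.943% and 3.13% of all genes were called lower at 65 and 75 Gy of 2 and then of 6 weeks. The r of Cxcr4 with this sum was 0.72 over the 17 libraries and 0.42 within groups, and the part of neutrophils in the Cxcr4 level was not tested.

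Of the lymphotoxin system, Lta (gene ID 16992, chr17:35203165-35205578, minus strand), the gene of the soluble subunit, had 24 to 140 counts per library. Control libraries of 2 weeks had 0.507, 0.514 and 1.2 CPM, those of 65 Gy 1.03, 0.745 and 0.837 CPM, and those of 75 Gy 0.893, 1.05 and 2.46 CPM. At 6 weeks, control libraries had 0.892, 0.927 and 0.716 CPM, those of 65 Gy 1.58 and 1.31 CPM, and those of 75 Gy 0.771, 1.38 and 1.21 CPM. Only the 65 Gy group of 6 weeks was clear of its controls.

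The log2 fold changes of Lta were 0.23, 0.98, 0.78 and 0.40, with adjusted p of 0.784, 0.0935, 0.25 and 0.455 (edgeR), so none was called. At 75 Gy and 2 weeks a single library decided the side of the threshold. Without control library 3128 the value was 1.52 (adjusted p = 0.0232) and without 75 Gy library 3132 it was 1.22 (adjusted p = 0.0413), both called, whereas without library 3134 it was 0.38 (adjusted p = 0.525).

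Ltb (gene ID 16994, chr17:35194507-35196305, plus strand) encodes the membrane anchor of the lymphotoxin heterotrimer. It had between 14.4 and 24.5 CPM in control libraries and between 14.9 and 27.8 CPM in irradiated ones, with overlap in all 4 comparisons and the highest value in library 3134. Log2 fold changes were 0.04, 0.43, 0.03 and -0.12 (adjusted p = 0.924, 0.134, 0.955 and 0.669, edgeR). The value at 75 Gy and 2 weeks was 0.25 without library 3134. Over the 17 libraries Ltb was most like Spn (r = 0.824) and Coro1a (r = 0.812), both leukocyte genes, with r within groups of 0.905 and 0.911.

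Ltbr (gene ID 17000, chr6:125306571-125313885, minus strand), the receptor gene of the stromal side, varied least. Control libraries had between 78.8 and 90.6 CPM and irradiated ones between 73.8 and 99.0 CPM. At 2 weeks all 65 Gy (92.1 to 99.0 CPM) and 75 Gy libraries (93.1 to 97.6 CPM) were above the controls (86.7 to 89.1 CPM), by a log2 fold change of 0.12 at each dose (adjusted p = 0.363 and 0.294, edgeR). At 6 weeks the values were 0.11 and -0.08 (adjusted p = 0.427 and 0.457). The bounds of all 4 intervals lay between -0.25 and 0.30, so a change of Ltbr mRNA by the fold limit was outside them.

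In the remaining comparisons the members did not pass the test. By edgeR 0 of 10 were called between 75 Gy and 65 Gy at 2 weeks or at 6 weeks (0% of all genes at either time), between control lungs of 6 and 2 weeks (0.576% of all genes), or for the change of the 65 Gy (0.0136%) or 75 Gy effect (0.254%) from 2 to 6 weeks. At an unadjusted p under 0.05 the count was 1 between the doses at 6 weeks (Ltbr) and 0 in the other 4 comparisons, and DESeq2 called 0 in all 5. Between doses the members' log2 differences lay between -0.61 and 0.75 at 2 weeks and between -0.37 and 0.46 at 6 weeks.

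The genes around this circuit were taken from 5 lists. Of 15 TNF family and NF-kB genes, 2 were called higher at 65 Gy and 2 weeks, where 3.47% of all genes were called higher, and 3 in each of the other comparisons, where 5.67%, 4.34% and 7.28% were. None was called lower. Tnfrsf1b, the second TNF receptor gene, was called in all 4 comparisons, and its value at 75 Gy and 2 weeks was 1.72 on the log2 scale (SE 0.27, adjusted p = 0.000534, edgeR), or 1.13 without library 3134, which had 388 CPM against 131 and 175 CPM in the others of its group. Tnf itself rose at 2 weeks at 65 Gy (1.61, SE 0.24) and 75 Gy (1.97, SE 0.24), whereas at 6 weeks its values of 0.52 and 0.84 were not called. Tnfsf11, the RANK ligand gene that also acts in lymph node formation, was called at 75 Gy and 2 weeks (2.24) and at 65 Gy (1.99) and 75 Gy (2.50) at 6 weeks, from 0.462 ± 0.145 CPM (SD, n = 3) in control lungs of 6 weeks to 2.62 ± 0.381 CPM (SD, n = 3) at 75 Gy. The value of Tnfsf11 at 75 Gy and 2 weeks was 1.65 without library 3134. At 65 Gy and 6 weeks, Tnfrsf1b lost its call without library 3136, 3137, 3138 or 3140 (1.04 to 1.16) and Tnfsf11 without 3137, 3138 or 3140 (1.76 to 2.09). The noncanonical pathway genes Map3k14, Nfkb2, Relb, Traf2, Traf3 and Chuk were called in none of the 4 comparisons.

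Of 15 scavenging receptor and neighbouring chemokine genes, 4, 7, 8 and 9 were called higher at 65 Gy and 75 Gy of 2 weeks and at 65 Gy and 75 Gy of 6 weeks, and 0, 1, 1 and 2 lower, beside shares of all genes of 3.47%, 5.67%, 4.34% and 7.28% higher and 0.88%, 2.07%, 0.943% and 3.13% lower. The median log2 fold changes of this list were 0.67, 1.2, 1.31 and 1.8. Ccl17 and Ccl22, which encode the ligands of CCR4 from dendritic cells and macrophages, were called in all 4 comparisons together with Ccr4 itself and Ch25h, whose product makes the oxysterol precursor that guides B cells and dendritic cells. Ccl17 went from 3.01 ± 1.03 CPM (SD, n = 3) in control lungs of 6 weeks to 29.9 ± 6.91 CPM (SD, n = 3) at 75 Gy, or 3.31 on the log2 scale (SE 0.36, adjusted p = 2.01e-05, edgeR). Ccl22 went from 8.97 ± 1.51 to 31.4 ± 5.54 CPM in the same groups (1.81, SE 0.26). Several calls at 65 Gy and 2 weeks were near the limits, as for Ccl17 (1.16, adjusted p = 0.0408), which was not called without library 3127, 3128, 3129, 3131, 3135, 3138, 3140, 3141 or 3143 (0.87 to 1.19), and Ccr4 (1.51, adjusted p = 0.0294), which was not called without library 3126, 3127, 3129 or 3131 (1.17 to 1.62). Ch25h at 65 Gy and 2 weeks was 0.97 without library 3129, and Ccr4 at 65 Gy and 6 weeks had an adjusted p of 0.0563 without library 3138 (edgeR). Ackr4, named after its values were seen, the gene of the receptor that scavenges CCL19 and CCL21, was called lower at 75 Gy and 2 weeks (-1.18), 65 Gy and 6 weeks (-1.40) and 75 Gy and 6 weeks (-1.42).

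Of 10 high endothelial venule and homing genes, 1, 1, 3 and 3 were called higher and 0, 2, 1 and 0 lower, beside the same shares of all genes. Glycam1, a mucin gene of high endothelial venules, had 0 counts in every control library and in all libraries of 2 weeks, and 1.32 ± 0.656 CPM (SD, n = 2) at 65 Gy and 1.4 ± 0.824 CPM (SD, n = 3) at 75 Gy at 6 weeks. Against a floor of 3 counts per control library these levels were at least 25.6-fold and 27.1-fold higher (adjusted p = 0.0049 and 0.00134, edgeR), and DESeq2 did not call the 65 Gy value (adjusted p = 0.0857). Madcam1, the gene of the mucosal addressin, had 0 counts in control libraries of 6 weeks and 23 to 25 counts at 65 Gy and 11 to 26 counts at 75 Gy, at least 7.83-fold and 5.80-fold higher (adjusted p = 0.00923 and 0.00443, edgeR). No control library reached the filter's minimum count of 10 for Glycam1 or Madcam1. Both genes were thus tested only because irradiated libraries held counts. Their calls, which are part of the list's numbers at 6 weeks, and their adjusted p are not independent of that filter. With both genes at these bounds the medians of the list stayed the same. Fut7, a fucosyltransferase gene, was called in all 4 comparisons, between 1.04 and 1.53 on the log2 scale. At 65 Gy it was not called without control library 3127 (0.89) or 65 Gy library 3129 (0.92) at 2 weeks, or without 65 Gy library 3138 (0.84) at 6 weeks.

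Of the 10 genes of the lymphoid tissue inducer and interleukin-7 list 8 were tested, and 1, 2, 1 and 3 were called higher (3.47%, 5.67%, 4.34% and 7.28% of all genes) and 1 lower in each comparison (0.88%, 2.07%, 0.943% and 3.13%). The lower gene was Kit, between -1.54 and -1 on the log2 scale, and its call at 65 Gy and 6 weeks sat at the fold limit. That call was lost with RLE or upper-quartile factors, either other filter, the compared groups alone and DESeq2 (-1.0 to -0.97). It was also lost without library 3126, 3132, 3136, 3141, 3142 or 3143 (-0.99 to -0.94). Without 65 Gy library 3138 the value was -1.1, and without 3140 it was -0.89. Il23a, the p19 subunit gene of interleukin-23, was called higher throughout but at 0 to 30 counts per library. Control libraries had at most 4 counts of Il23a, so it too passed the filter only through irradiated libraries. At 65 Gy it lost its call without any 1 of 5 libraries at 2 weeks (3126, 3127, 3129, 3130 and 3131) and of 5 at 6 weeks (3135, 3136, 3137, 3138 and 3140). Il7r, the interleukin-7 receptor gene, was called at 75 Gy at 2 weeks (1.01) and 6 weeks (1.1), and its value at 2 weeks was 0.43 without library 3134, and uncalled without 3127 (0.90) or 3128 (1.04). At 6 weeks it was 0.99 without library 3142. Of 10 follicular stroma and B cell survival genes, 1, 1, 2 and 1 were called higher and 0, 1, 0 and 0 lower, against those same shares. Il6 was called in all 4, from 0.903 ± 0.291 CPM (SD, n = 3) in control lungs of 6 weeks to 11.8 ± 4 CPM (SD, n = 3) at 75 Gy, and its value of 2.11 at 65 Gy and 6 weeks was 1.14 without library 3140 (adjusted p = 0.362, edgeR) and was not called without control library 3135 (2.31), 3136 (2.18) or 3137 (1.87). Cr2, the complement receptor gene of follicular dendritic cells and B cells, was called lower at 75 Gy and 2 weeks (-1.19), with a value of -0.85 without control library 3126.

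**Figure D5:**
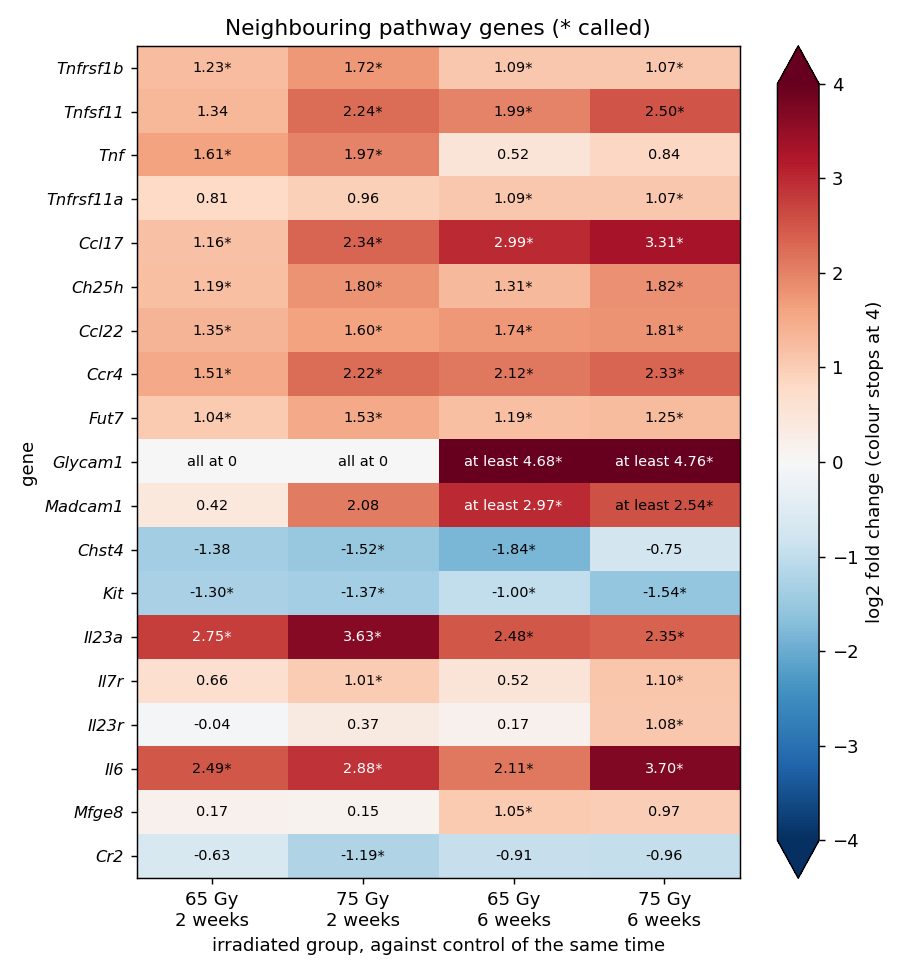
Log2 fold changes (colour and printed value) of 19 genes named from the 5 lists (rows) in the 4 comparisons of irradiated with control lungs (columns), with a star where called and a lower bound where all control libraries were at 0. Ccl17, Ch25h, Ccl22, Ccr4, Tnfrsf1b, Fut7, Il23a and Il6 are called higher in every column and Kit lower, whereas Glycam1 and Madcam1 are starred at 6 weeks.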

How the data were processed

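RNA-seq of 17 left lung libraries (stranded mRNA kit) was deposited as 1 table of whole-number gene counts. The authors trimmed reads with Trimmomatic, aligned them with HISAT2 to GRCm38.p6 and assembled transcripts with StringTie; how the deposited counts were made from that, and whether the counting used strand, are not given in the sources used here. Library totals were 46764569 to 66797879 counts, and 10 counts were worth at most 0.214 CPM.

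Starting from the deposited counts, genes were filtered with filterByExpr (minimum count 10, minimum total 15), scaled by TMM and tested by edgeR 4.0.16 (R 4.3.3) with the quasi-likelihood F-test in 1 fit over all 17 libraries with 1 coefficient per group. P-values were adjusted by Benjamini-Hochberg over 22052 genes. A call required a log2 fold change beyond 1 in either direction together with an adjusted p no higher than 0.05. Log CPM values used a prior count of 2, and confidence intervals were 95% intervals from the fit. The fit was tested on simulated data. Comparisons were irradiated against control lungs at each time, 75 against 65 Gy, 6 against 2 weeks in control lungs, and the change of each dose effect between times.

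The members, the 5 lists of related genes and the marker lists were chosen with earlier results of these data known. Named genes were all members, up to 4 genes of each list called in most comparisons with control, the first 2 markers of each marker list, and the 3 genes most like each member by Pearson r of log2 CPM. Alternatives were RLE and upper-quartile factors, 2 other filters, DESeq2 1.42.0, fits of the compared groups alone, calls by adjusted p alone and leaving out each library. Summing the Ccl21 and Ccl19 gene copies, and applying the alternatives to the related genes, were added after seeing the data, as were fits of named markers without libraries 3134 and 3135 and the plasma cell sum without Jchain. Promoter sequences came from RefSeq and coding sequences from GENCODE, both GRCm38.p6. Protein sequences were not used here. Results for some genes of the marker and likeness lists are not reported here.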

Additional observations from a re-analysis of the deposited data

How the results depend on the processing

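The calls of Cxcl13 in the 4 comparisons with control held under every alternative run. The number of members called at 65 Gy and 2 weeks was 2 at adjusted p alone, where Ccl21a was added. Leaving out a library moved the number called at 75 Gy between 1 and 3 at 2 weeks (1 without control library 3126, 3 without 3128 or 3132, which add Lta) and between 1 and 2 at 6 weeks (1 without control library 3135 or 3137 or 75 Gy library 3143). Genes of the 5 lists called in either direction numbered 10, 19, 20 and 22 in the 4 comparisons (65 and 75 Gy at 2 weeks, then at 6 weeks). The lists had 15, 15, 10, 8 and 10 genes tested. Of all genes tested, 4.35%, 7.74%, 5.28% and 10.4% were called in these comparisons. At adjusted p alone the list genes numbered 19 at 65 Gy and 2 weeks, where 11% of all genes passed, and 35 at 75 Gy and 6 weeks, where 36% did. With the compared groups alone they numbered 12 at 75 Gy and 2 weeks. Without a library they ranged from 5 to 11 at 65 Gy and 2 weeks (5 without 3129, 6 without 3127), from 11 to 20 at 65 Gy and 6 weeks (11 without 3138 or 3140) and from 13 to 21 at 75 Gy and 2 weeks (13 without 3134). The cause was not tested.

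Values near 0 changed sign. Ccr7 at 65 Gy and 6 weeks (-0.01) was 0.02 with upper-quartile factors or the compared groups alone and 0.01 with either other filter. Leaving out a library gave ranges of -0.19 to 0.39 for it, -0.22 to 0.24 for Ccr7 at 75 Gy and 2 weeks, -0.09 to 0.30 and -0.14 to 0.23 for Cxcl12 at 65 and 75 Gy and 2 weeks, -0.08 to 0.17, -0.19 to 0.23 and -0.25 to 0.08 for Ltb at 65 Gy and 2 weeks, 65 Gy and 6 weeks and 75 Gy and 6 weeks, and -0.05 to 1.18 for Ccl19 at 65 Gy and 6 weeks. For Il23r and Madcam1 at 65 Gy and 2 weeks the ranges were -0.58 to 0.26 and -0.96 to 4.45. Cxcl13 ranged from -0.31 to 0.39 and from -0.27 to 0.07 between doses at 2 and 6 weeks, from -0.12 to 0.17 between control lungs, and from -0.05 to 0.46 and from -0.23 to 0.37 for the change of the 65 and 75 Gy effects.

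Over the fold changes of members and named list genes, 2618 values kept direction and side of the threshold, 93 lost the call, 19 gained one and 43 changed sign. This tally covers the alternatives other than adjusted p alone, and leaves out the numbers of genes called. Where 1 library of 65 Gy and 6 weeks was left, its spread was assumed to be that of the other groups. No paired analysis was possible because the library numbers all differ and none is shared between groups. Ccl19, Lta and Il23a had few counts, and groups of 2 or 3 libraries leave wide intervals.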

Other observations

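Markers of cells that use these chemokines were unequally represented. Of 8 follicular helper T cell and germinal centre genes, 2, 2, 3 and 4 were called higher at 65 Gy and 75 Gy of 2 weeks and at 65 Gy and 75 Gy of 6 weeks, and 0 lower (edgeR's quasi-likelihood test, Benjamini-Hochberg adjustment). Of all genes 3.47%, 5.67%, 4.34% and 7.28% were called higher in these comparisons. The summed level of the list was 102 to 128 CPM in control libraries and 109 to 131 CPM in irradiated ones, except for library 3134 with 166 CPM. Pdcd1, the PD-1 gene, was called in all 4, with log2 fold changes of 1.89, 2.36, 2.56 and 3.70. Of 7 plasma cell markers, 0, 0, 1 and 3 were called higher, with Jchain, the joining chain gene of secreted antibodies, at 3.80 and 4.30 on the log2 scale at 6 weeks. The summed plasma cell marker level was 488 to 578 CPM in control libraries, 600 to 698 CPM in irradiated libraries of 2 weeks and 894 to 1870 CPM in those of 6 weeks. Jchain made most of the step in the sum at 6 weeks, with 309 to 1220 CPM there and 10.2 to 64.7 CPM in control libraries. The other 6 markers summed to 564 to 657 CPM in irradiated libraries of 6 weeks, 575 to 671 CPM in those of 2 weeks and 468 to 565 CPM in control libraries. Much of that sum was Sdc1, with 282 ± 13.7 CPM (SD, n = 3) in control lungs of 6 weeks and 353 ± 21.2 CPM (SD, n = 3) at 75 Gy. Mzb1 and Derl3 were also called higher at 75 Gy and 6 weeks. All 7 markers had log2 fold changes above 0 at both doses of 6 weeks. Of 9 T cell markers, 0, 0, 1 and 3 were called higher, and of 8 dendritic cell markers 3, 4, 5 and 7, against the same shares of all genes. The dendritic cell marker Zbtb46 was not called and had a lower mean in every irradiated group than in its controls.

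The genes most like Lta over the 17 libraries were Ciita (r = 0.866), Crmp1 (r = 0.861) and H2-DMa (r = 0.856), and those most like Cxcr4 were Lilra6 (r = 0.89), 3110056K07Rik (r = 0.86) and Cers2 (r = 0.854). Ranking by deviations from group means put other genes first for Cxcl13 (Txnl4a, Sys1 and Parl) and for Cxcr5 (H2-Ob).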
